A study of Homo sapiens with 6 samples.

Results

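The genes described are the RAB small GTPases, the largest branch of the RAS superfamily. They were taken as the genes whose symbol is RAB, a number and at most a letter and a digit, which leaves out RAB effectors and regulators. The array annotation named 63 probe sets with such a symbol alone, and the brightest one was kept for each gene. This gave 60 RAB genes of 18417 genes measured, of which RefSeq lists 59 as protein-coding and 1, RAB1C, as a pseudogene. RNA was recovered with a rat antibody against AGO2 (clone 11A9) from PC3 cells, an androgen-independent line derived from a prostate cancer. The cells had been transfected with miR-205 (3 arrays) or with a negative control mimic (3 arrays), and RNA was labelled with biotin for Affymetrix gene arrays. Both groups share the line, the transfection and the antibody. The dose of the mimic and the time after transfection are not given in the sources used here, and the 3 samples per group are biological triplicates by the design text. Whether they were separate cultures is not stated, so p-values measure the spread between these samples only. Input RNA was not analysed here. A change in the number of cells with a transcript, in its amount per cell and in its binding to AGO2 can therefore not be told apart.

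RAB proteins are molecular switches of membrane traffic. In the GTP-bound state each one sits on its own membrane and recruits effectors that form, move, tether or fuse vesicles. Exchange factors load GTP, GTPase-activating proteins end the active state, and GDI proteins carry the prenylated RAB back through the cytosol. In epithelial cells, RABs of the recycling endosome and of the route from the Golgi to the surface deliver junction proteins and integrins. A microRNA guides AGO2 to transcripts that pair with its seed, bases 2 to 8 from the 5′ end. The mature sequences of both arms of miR-205 are shown because miR-205 is the reagent whose effect is read here, with the seed in capitals. They were taken from RefSeq (GRCh38.p14), where the hsa-miR-205-5p sequence lies at chr1:209432166-209432187 on the plus strand. The labels do not state which arm or sequence the mimic had.
hsa-miR-205-5p: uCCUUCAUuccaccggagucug
hsa-miR-205-3p: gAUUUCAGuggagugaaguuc
Sites for these seeds in the RAB transcripts were not analysed here.

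Values are log2 intensities, and a change is the mean of the miR-205 arrays minus the mean of the control arrays, with its standard error (SE) from limma. A gene was called at an adjusted p under 0.05 over all 18417 genes. A gene is termed dim where its mean over the 6 arrays did not exceed 6.04, the level that 95% of the 341 olfactory receptor genes stayed below; this line is not known to use these receptors. The SD of the difference between an array pair over the RAB genes was 0.118 to 0.121 among miR-205 arrays, 0.111 to 0.152 among control arrays and 0.361 to 0.398 between groups. Over all genes, negative control replicate 2 stood apart on the second principal component (-0.875, against 0.37 and 0.261 in the other control arrays). Of the prostate epithelial markers measured, 5 of 6 were above the dim level, and KRT5, a basal keratin, was not. KRT8 and KRT18, the keratins of luminal epithelium, had control means of 11.2 and 11.4. Of markers of other cells, 2 of 4 leukocyte, 3 of 5 fibroblast, 1 of 3 endothelial and 2 of 3 neuroendocrine genes were above the dim level. Those above it were CD68 (mean over the 6 arrays 9.80) and CD14 (6.33), COL1A1 (8.99), COL1A2 (6.64) and PDGFRA (6.26), PECAM1 (6.80), and ENO2 (10.1) and SYP (6.33). The leukocyte markers PTPRC and CD3E, the fibroblast markers DCN and LUM, the endothelial markers CDH5 and VWF and the neuroendocrine marker CHGA were dim. PECAM1 was lower with miR-205 by 0.98, PDGFRA by 0.31 (adjusted p = 0.0493), and SYP (0.38) and the dim LUM (0.36) were called higher. The part of these genes in the RAB changes was not tested. The mean level of the 6 epithelial markers was 8.81 to 8.89 on the miR-205 arrays and 7.90 on each control array, and 4 of the 6 were called higher. The part of that rise in the RAB changes was not tested.

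RAB genes moved in both directions with miR-205. RAB15, a GTPase of the endosomes that sort and recycle the transferrin receptor, fell more than any other of the 18417 genes. RAB14, which acts between the Golgi and early endosomes, fell next among the RABs, and RAB3D, a GTPase of secretory granules, rose most. Of the 60 genes, 22 were called (36.7%), against 26.6% of all genes. RAB genes were brighter, with array medians of 9.14 to 9.32 against 7.82 to 7.85 over all genes. When only genes above the median level were tested, 20 of 42 RAB genes were called in either direction, against 51.2% of all those genes. Of the 60, 14 fell (23.3%), against 14% of all genes in that direction, and 8 rose (13.3%), against 12.6%. The median change of the 60 was 0.00 and that of all genes -0.02. The central 50% of the RAB genes lay between -0.19 and 0.12, that of all genes between -0.14 and 0.11. RAB15 was the only RAB called at least 2-fold lower, as were 0.38% of all genes, and RAB14 and RAB31 were also at least 1.5-fold lower. RAB3D was the only RAB called at least 1.5-fold higher. The shares of all genes at 1.5-fold were not computed, so these counts cannot be read as particular to RABs. Counted from the lowest change over all 18417 genes, RAB14 ranked 178, RAB31 457 and RAB3D 18211. Of the 14 falls, 13 or 14 were called when any 1 array was left out. The 8 rises were less steady, with 3 called without negative control replicate 3, 4 without miR-205 replicate 1 or 2, 5 without miR-205 replicate 3 or negative control replicate 1, and 6 without negative control replicate 2, where RAB1C was called higher in addition.

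On the control arrays RAB15 stood at 10.10, 10.22 and 10.17, and on the miR-205 arrays at 8.30, 8.22 and 8.24. All miR-205 arrays lay below all control arrays, and the gap between the groups was many times the spread within either. The change was -1.91 ± 0.06 (SE, n = 3 per group, adjusted p = 2.34e-06), a 3.75-fold fall. Its value lay between -1.94 and -1.88 under every setting tried. Transcripts of RAB15 were read by 1 probe set (7979663), well above the dim level in both groups.

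RAB14 stood at 11.48, 11.38 and 11.39 with the control and at 10.65, 10.59 and 10.68 with miR-205. The groups did not overlap, and the change was -0.78 ± 0.06 (adjusted p = 7.3e-05). Alongside RAB15 and RAB14, 2 more of the 9 recycling RABs fell. These were RAB12, linked to the transport of the transferrin receptor to lysosomes (-0.32 ± 0.07, adjusted p = 0.0116), and RAB35, a regulator of fast recycling and of cytokinesis (-0.31 ± 0.07, adjusted p = 0.0142). Without negative control replicate 3, RAB35 was at -0.29 with an adjusted p of 0.0508 and lost its call. RAB11A, the GTPase that defines the recycling endosome, was the only recycling RAB to rise, from 10.62, 10.66 and 10.56 to 10.95, 10.89 and 10.77. Its change of 0.26 ± 0.07 had an adjusted p of 0.0212. Its call was lost without miR-205 replicate 1 (adjusted p = 0.0821), miR-205 replicate 2 (0.077) or negative control replicate 1 (0.052) or 3 (0.0702). The RAB11A relative RAB25, which is restricted to epithelia, was dim with means of 4.71 ± 0.08 and 4.76 ± 0.07 (SD, n = 3 each). RAB17, another RAB of polarised epithelia, had a change of 0.19 ± 0.07 that was not called (adjusted p = 0.0764). RAB4A, of rapid recycling, was at 0.06 and RAB11B at -0.03, neither of them called.

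**Figure D1:**
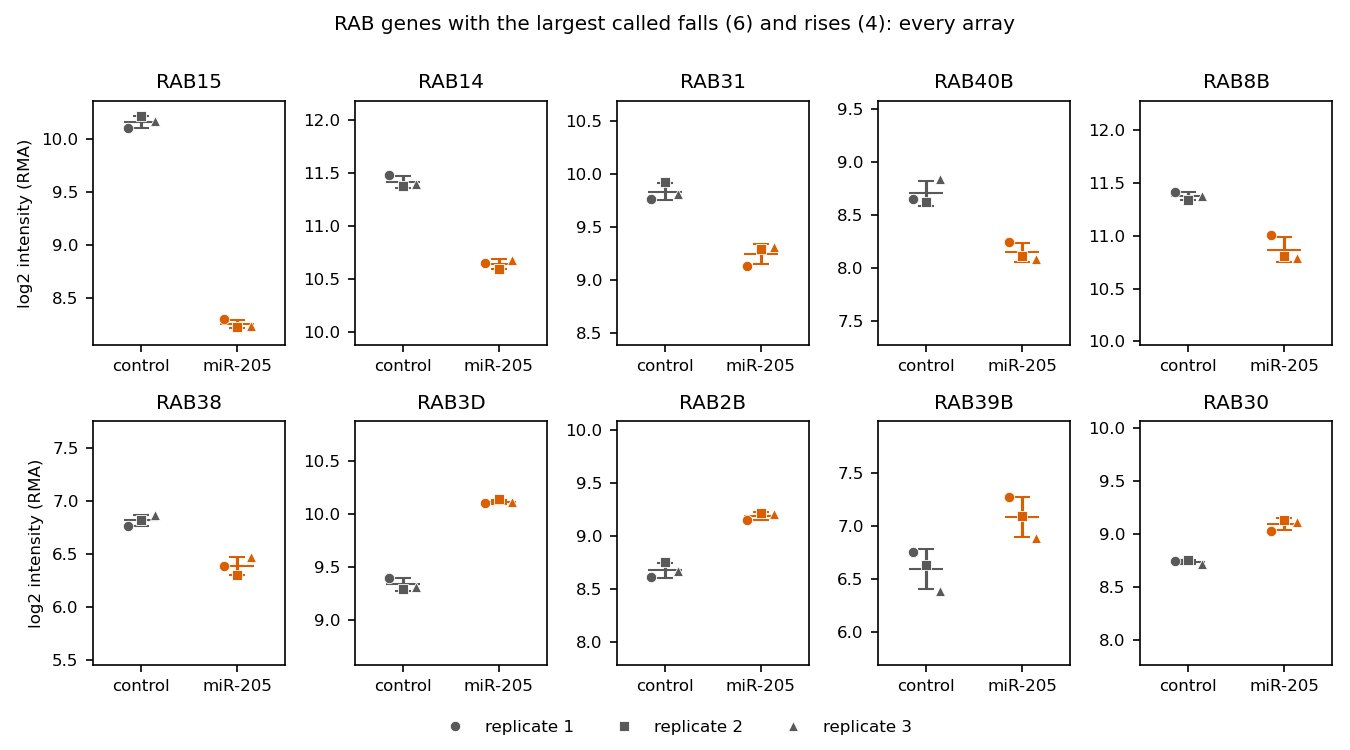
Log2 intensity (y axis) of the 6 RAB genes with the largest called falls and the 4 with the largest called rises, on each control and miR-205 array. Symbols mark replicates, and bars the mean and SD of 3 arrays. All panels span the same height of 2.3 log2 units around their own centre, and in each one the groups do not overlap, with the widest gap for RAB15 (8.25 against 10.16).

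Among the early endosome RABs, RAB31 was called and 6 others were not. RAB31, which carries cargo between the trans-Golgi network and endosomes, went from 9.76, 9.92 and 9.81 to 9.13, 9.29 and 9.31. Each miR-205 array was lower than each control array, with a change of -0.59 ± 0.07 (adjusted p = 0.000656). Its close relative RAB22A was at 0.01 ± 0.06 (adjusted p = 0.94). The RAB5 genes, whose products drive the fusion of early endosomes, changed by 0.12 (RAB5A), 0.04 (RAB5B) and -0.10 (RAB5C), and none was called. RAB21, an integrin-binding RAB, was at 0.06 and RAB20 at -0.11, also without a call.

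RABs of the route from the trans-Golgi network to the cell surface split into a pair that fell and a pair that did not pass. RAB8B stood at 11.41, 11.34 and 11.38 with the control and at 11.00, 10.81 and 10.79 with miR-205. It fell by 0.51 ± 0.07 (adjusted p = 0.00131), with no overlap of the groups. RAB8A, which directs vesicles to the plasma membrane and the cilium, went from 9.76, 9.88 and 9.68 to 9.35, 9.39 and 9.32, again without overlap. Its change was -0.42 ± 0.07 (adjusted p = 0.00248). RAB10 and RAB13, which share this route and act in basolateral delivery and at tight junctions, had changes of -0.02 ± 0.06 and 0.10 ± 0.07 and were not called.

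Of 16 RABs of the path from the endoplasmic reticulum to the Golgi and within the Golgi, 4 rose and 2 fell. RAB2B rose from 8.61, 8.75 and 8.66 to 9.15, 9.21 and 9.20, a change of 0.51 ± 0.06 (adjusted p = 0.00057). RAB30, a Golgi RAB, went from 8.74, 8.75 and 8.71 to 9.03, 9.13 and 9.11 (0.36 ± 0.06, adjusted p = 0.00262). For both genes all miR-205 arrays were above all control arrays. RAB39B, a gene mutated in X-linked intellectual disability, had control values of 6.76, 6.63 and 6.39 and miR-205 values of 7.27, 7.09 and 6.89. Its groups did not overlap, but its spread within a group was wider (SD 0.19 in each), and its change was 0.49 ± 0.12 (adjusted p = 0.0157). That call was lost without miR-205 replicate 1 (adjusted p = 0.0562) or 2 (0.0503) or negative control replicate 3 (0.0541). RAB18, known for its place on the endoplasmic reticulum and lipid droplets, had a change of 0.31 ± 0.08 (adjusted p = 0.0224). In negative control replicate 2 it stood at 11.06, above the other control arrays (10.79 and 10.86) and below the miR-205 arrays (11.16, 11.20 and 11.27). Its call was lost without miR-205 replicate 2 (adjusted p = 0.0647) or 3 (0.0807), or negative control replicate 1 (0.0715) or 3 (0.0742). Without negative control replicate 2 it was called, at 0.39.

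The Golgi RABs that fell were RAB6B, an isoform best known from neurons, by 0.39 ± 0.07 (adjusted p = 0.00334), and RAB33A, by 0.36 ± 0.07 (adjusted p = 0.00529). RAB1A, RAB1B, RAB2A and RAB6A of this group did not pass. RAB1A and RAB1B, which serve transport from the endoplasmic reticulum to the Golgi, were at 0.12 and 0.07, RAB2A at 0.10 and RAB6A, of retrograde Golgi transport, at -0.02. The groups did not overlap for RAB1A and RAB2A, with miR-205 above.

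Regulated secretion gave the largest rise. RAB3D stood at 9.40, 9.29 and 9.32 with the control and at 10.10, 10.14 and 10.11 with miR-205, with a wide gap and little spread. The change was 0.78 ± 0.06 (adjusted p = 6.39e-05), or 1.72-fold. Its relative RAB3B fell from 9.21, 9.19 and 9.27 to 8.93, 8.99 and 8.94 (-0.27 ± 0.06, adjusted p = 0.00881), and RAB3A, of synaptic vesicles, had a change of 0.23 ± 0.09 that was not called (adjusted p = 0.0898). RAB26 rose by 0.29 ± 0.08 (adjusted p = 0.0325). Its call was lost without miR-205 replicate 1 (adjusted p = 0.102) or 3 (0.113), without negative control replicate 2 (0.0669) or 3 (0.0713), and with array weights (0.0568). RAB27A, which docks lysosome-related organelles and exosome-bearing bodies at the plasma membrane, came closest to the threshold among the RABs not called. It was at 8.28, 8.35 and 8.16 with the control and at 7.95, 8.16 and 7.96 with miR-205. The groups met at 8.16, and the change was -0.24 ± 0.08 (adjusted p = 0.0586). It was called under 5 of the other settings, among them without miR-205 replicate 2, at -0.31 (adjusted p = 0.0356). RAB27B was at 0.13 ± 0.06 (adjusted p = 0.165).

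Of 7 late endosome and lysosome RABs, 2 fell. RAB38, which with RAB32 builds melanosomes and other lysosome-related organelles, stood at 6.77, 6.82 and 6.87 with the control and at 6.39, 6.30 and 6.47 with miR-205. The values lay close to the dim level in both groups without overlapping, and the change was -0.43 ± 0.07 (adjusted p = 0.00186). RAB32 was at 0.12 ± 0.10 and was not called. RAB29, a partner of the kinase LRRK2, fell by 0.30 ± 0.07 (adjusted p = 0.0116), and without miR-205 replicate 2 it was at -0.28 with an adjusted p of 0.0526. RAB7A, the main RAB of late endosomes, was at 0.02 ± 0.06 and RAB9A, of transport from endosomes back to the Golgi, at 0.11 ± 0.06, neither called.

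Among the remaining members, RAB40B went from 8.65, 8.62 and 8.84 to 8.25, 8.11 and 8.08, with no overlap (-0.56 ± 0.08, adjusted p = 0.00129). RAB40C, which like RAB40B carries a SOCS box that recruits a ubiquitin ligase, fell by 0.27 ± 0.06 (adjusted p = 0.0115). RAB40A was at -0.09 and was not called. RAB23, an inhibitor of hedgehog signalling at the cilium, rose by 0.19 ± 0.05 (adjusted p = 0.0315), the smallest change called among the RABs. This call was lost when any 1 of the 6 arrays was left out (adjusted p = 0.0513 to 0.105). The pseudogene RAB1C was at 0.15 and was not called. Without negative control replicate 2, which read 11.24 against 11.07 and 10.90 in the other control arrays, it was called, at 0.24 (adjusted p = 0.0367). Signal shared with near-identical copies of a gene was not tested.

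**Figure D2:**
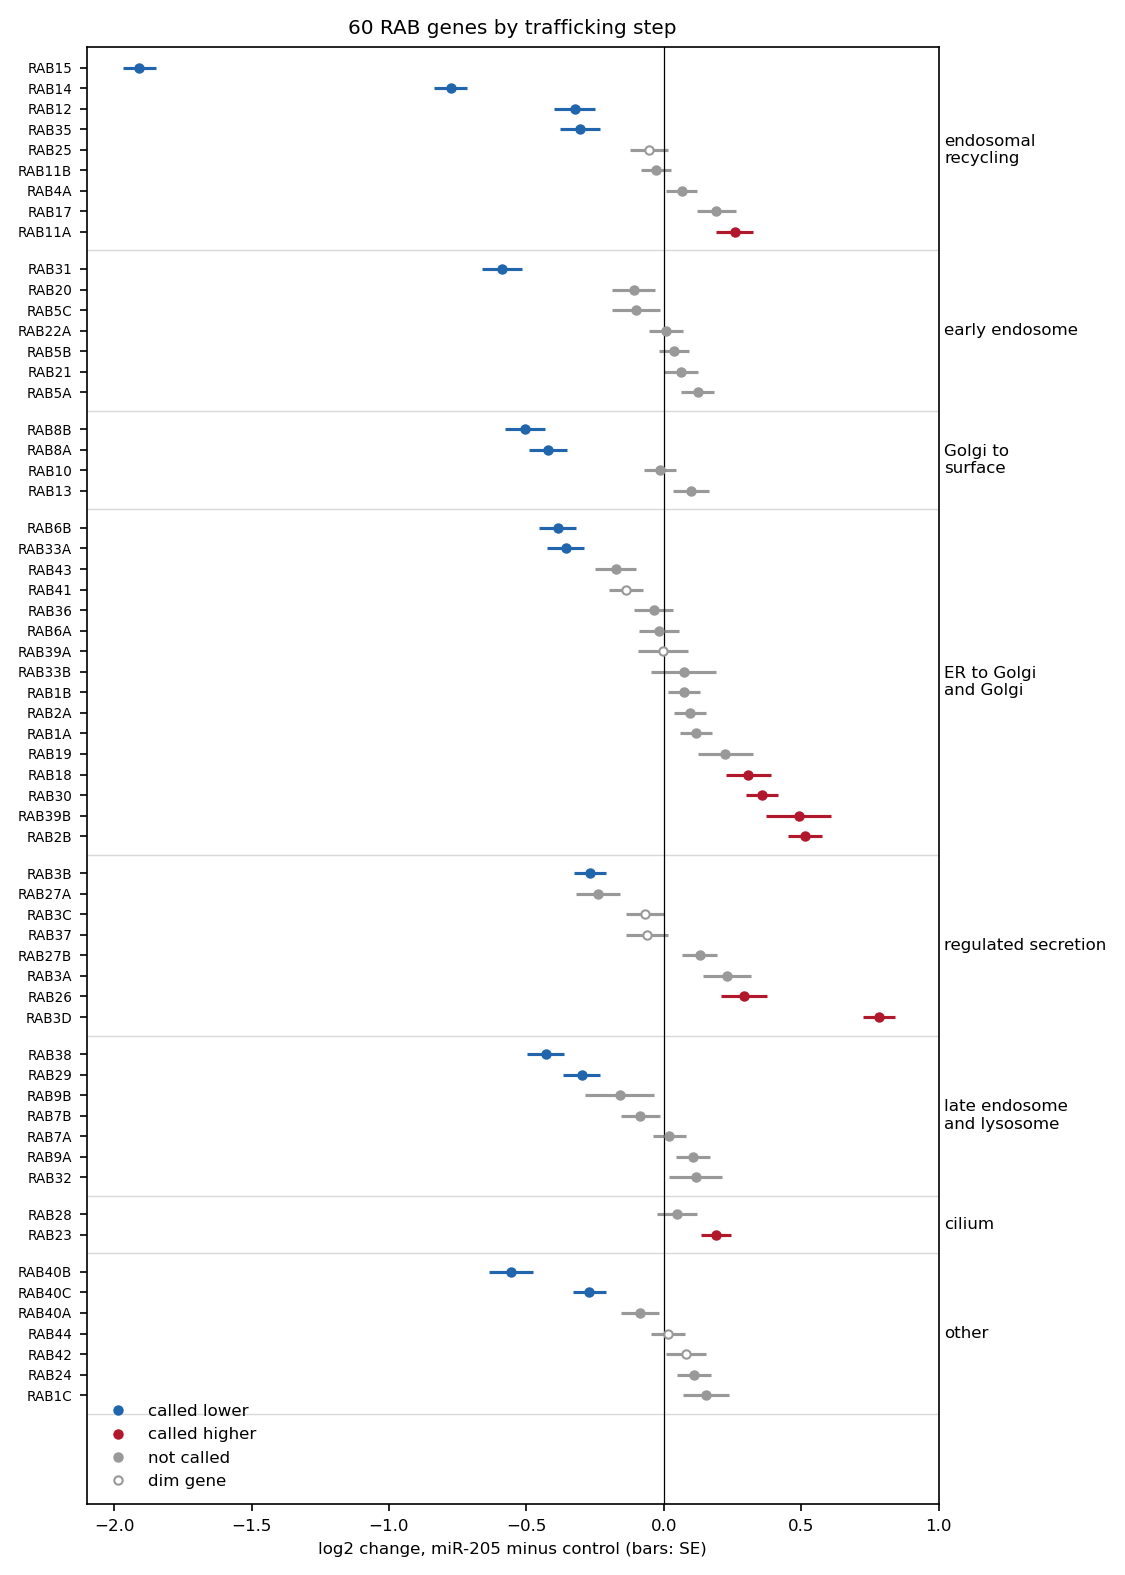
Log2 change with SE (x axis, miR-205 minus control, n = 3 each) of all 60 RAB genes, grouped by trafficking step. Steps were assigned from general knowledge. Blue marks genes called lower, red genes called higher, grey genes not called and open circles dim genes. RAB15 at -1.91 lies far to the left of all others, the next being RAB14 at -0.78, and the 4 rises of the Golgi group sit beside 2 falls.

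By trafficking step, falls were called for 4 of 9 recycling RABs, 2 of 4 RABs of the route to the surface, 2 of 7 late endosomal, 1 of 7 early endosomal, 2 of 16 Golgi and 1 of 8 secretory RABs. Rises were called for 1, 0, 0, 0, 4 and 2 of the same groups, for 1 of 2 ciliary RABs and for 0 of 7 others, of which 2 fell. Over all genes, 14% were called lower and 12.6% higher. The groups hold few genes and were not compared by a test, and counts such as 2 of 16 or 1 of 8 lie near those shares. The recycling count also depends on placing RAB12 and RAB14 in that group, as both have other routes named above. Of the 38 members not called, changes ran from -0.24 to 0.23, and 22 were under 0.1 in size. Every miR-205 array lay on the same side of every control array for 32 of the 60 genes (53.3%), against 42.2% of all genes. They were above for 17 genes and below for 15, against 19.9% and 22.2% of all genes. Of the 32, 10 were not called, with miR-205 above in 9 of them. Dim members numbered 7 (RAB3C, RAB25, RAB37, RAB39A, RAB41, RAB42 and RAB44), and none of them was called (0 with an unadjusted p under 0.05 by limma). Of the 53 others, 41.5% were called, against 33.8% of all genes above the dim level. By direction, 26.4% were lower against 18%, and 15.1% higher against 15.8%. Among genes above the median level, tested alone, 20 of 42 RAB genes were called, against 51.2% of all those genes. No excess was seen there with both directions joined. Of these RAB genes 12 were lower and 8 higher, and the shares of all those genes by direction were not computed. Over the 22 called genes, negative control replicate 2 was the control array nearest to the miR-205 mean for 12, replicate 1 for 8 and replicate 3 for 2.

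Close relatives were then compared within arrays, as the log2 value of one gene minus that of the other on the same array. This difference was taken for 23 pairs of related RABs and tested between groups by an exact two-sided permutation test. With 3 against 3 arrays its smallest p is 0.1, so no pair could pass (smallest adjusted p = 0.128), and the values are given for their size. The groups did not overlap for 18 of the 23 pairs. The share for pairs of other genes was not computed, so this count cannot be read as particular to RABs. Of single genes, 42.2% did not overlap. RAB3B and RAB3D moved furthest apart among genes of 1 subfamily, by -1.05 (SD 0.01 with miR-205 and 0.07 with the control, n = 3 each, exact p = 0.1). RAB22A and RAB31 parted by 0.60 (SD 0.15 and 0.08, exact p = 0.1), RAB32 and RAB38 by 0.55 (SD 0.08 and 0.17, exact p = 0.1) and RAB2A and RAB2B by -0.42 (SD 0.09 and 0.07, exact p = 0.1). In contrast, the difference for RAB8A and RAB8B, both called lower, was 0.08 (SD 0.13 in each group, exact p = 0.5), within the spread between arrays. RAB40B and RAB40C, also both lower, differed by -0.29 (SD 0.09 and 0.07, exact p = 0.1). RAB15 fell by 1.49 more than RAB8A (SD 0.06 and 0.09, exact p = 0.1), and its difference from RAB13 was -2.01 (SD 0.05 and 0.07, exact p = 0.1). RAB14 parted from RAB4A by -0.84 (SD 0.08 and 0.07, exact p = 0.1).

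**Figure D3:**
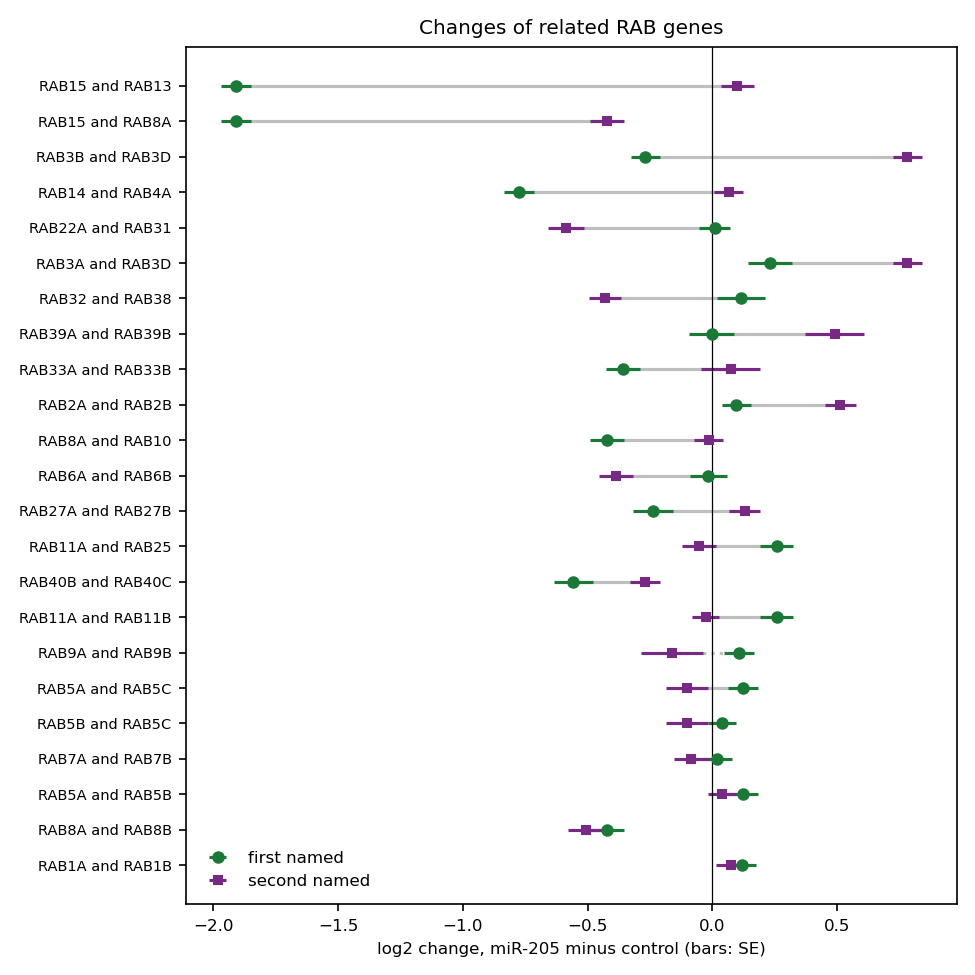
Log2 changes with SE (x axis, miR-205 minus control) of the 23 pairs of related RAB genes, sorted by the distance between them. Circles are the first and squares the second gene named, and a dotted line marks pairs whose within-array difference overlaps between groups. The pairs with RAB15 lie at the top (-1.91 against 0.10 and -0.42), while RAB8A and RAB8B lie close together at -0.42 and -0.51.

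Genes that act on RABs were taken from 4 lists. The prenylation, REP and GDI list, the machinery that lipidates RABs and shuttles them, had 7 measured genes. Of these, 1 rose (14.3%) and 0 fell by limma, against 12.6% and 14% of all genes. In either direction, 3 of the 7 had an unadjusted p under 0.05 by limma, against 6965 of all 18417 genes. The one that rose was RABIF, a chaperone of nucleotide-free RABs (0.23 ± 0.06, adjusted p = 0.0233). Its call was lost without miR-205 replicate 2 or 3 or negative control replicate 1 or 3 (adjusted p up to 0.0961), which left 0 called. GDI2 was at 0.00 ± 0.06, CHML, an escort protein for new RABs, at -0.09, and the subunits of the RAB geranylgeranyl transferase at 0.22 (RABGGTA) and -0.16 (RABGGTB), none of them called. Of 49 exchange factors, 12 fell and 7 rose (24.5% and 14.3%), with a median of 0.00. The shares were 14% and 12.6% over all genes, and 18% and 15.8% over genes above the dim level. DENND1B, an exchange factor for RAB35, fell by 1.17 ± 0.08 (adjusted p = 3.35e-05), SBF2 by 0.78 ± 0.06 (adjusted p = 6.78e-05) and AVL9, needed for late secretory transport, by 0.63 ± 0.06 (adjusted p = 0.000205). The largest of the 7 rises were those of TRAPPC2 (0.81 ± 0.13, adjusted p = 0.00241) and SH3BP5 (0.57 ± 0.07, adjusted p = 0.000838). Without miR-205 replicate 1 or 2 or negative control replicate 1, the 7 rises became 4. MADD, which activates RAB3 and RAB27 proteins, rose by 0.26 ± 0.07 (adjusted p = 0.0301), and its call was lost without miR-205 replicate 1 or 2 or negative control replicate 1 or 2 (adjusted p = 0.0548 to 0.106).

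Of 40 GTPase-activating proteins, 6 fell and 7 rose (15% and 17.5%), with a median of 0.03. These shares were near the 14% and 12.6% of all genes and the 18% and 15.8% of genes above the dim level. TBC1D4, known as AS160 and active on RAB8A, RAB10 and RAB14, fell by 0.83 ± 0.07 (adjusted p = 9.76e-05), and TBC1D16 by 0.72 ± 0.10 (adjusted p = 0.00105). TBC1D8B rose by 0.68 ± 0.08 (adjusted p = 0.000616). Falls numbered 3 without miR-205 replicate 2, and rises 4 without any 1 miR-205 array or negative control replicate 3. Effectors leaned to falls, with 24 of 73 lower (32.9%) and 7 higher (9.59%), and had a median of -0.07. Over all genes the shares were 14% and 12.6%, and over genes above the dim level 18% and 15.8%. With 1 array left out, 17 to 27 effectors were called lower and 5 to 8 higher. RAB11FIP2 and RAB11FIP1, which link RAB11 to myosin motors and sorting, fell by 0.98 ± 0.07 (adjusted p = 5.55e-05) and 0.65 ± 0.07 (adjusted p = 0.000243). MICAL2, of a family of actin-oxidising enzymes, fell by 0.71 ± 0.07 (adjusted p = 0.000222). SYTL2, which binds RAB27 proteins on secretory vesicles, rose by 0.68 ± 0.06 (adjusted p = 0.000159). REP15, named as an effector of RAB15, had dim means of 4.86 and 5.11 and was not called (-0.24 ± 0.12, adjusted p = 0.188).

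**Figure D4:**
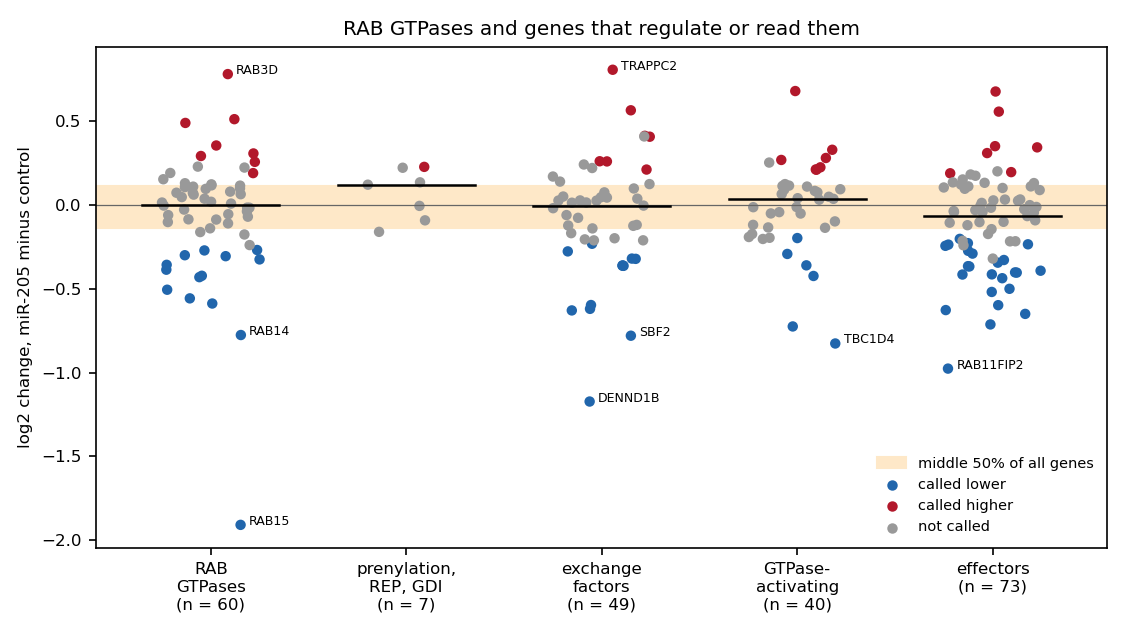
Log2 changes (y axis, miR-205 minus control) of the 60 RAB genes and of the measured genes of 4 lists of their regulators and effectors, 1 point per gene. Black lines are medians, the band is the middle 50% of all 18417 genes (-0.14 to 0.11), and genes that changed by over 0.75 are named. Points reach furthest down for RAB15 (-1.91) and DENND1B (-1.17), and the effectors have 24 blue points for 7 red ones.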

How the data were processed

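The authors deposited RMA values on a log2 scale, made with Affymetrix Expression Console 1.1.2 according to the processing notes, and these log2 values were used as deposited. RMA normalizes over arrays, so a shift of all transcripts would not be seen. Of 33297 probe sets, 19460 carried 1 gene symbol. The brightest probe set per gene was kept, which left 18417 genes. All 60 RAB genes had an Entrez number in the RefSeq table (GRCh38.p14). RAB34, RAB4B, RAB6C and RAB6D had only probe sets shared with other genes. The test was limma's (version 3.58.1, R 4.3.3), with group as the only term, two-sided, and Benjamini-Hochberg adjustment over all genes. The steps were tested on simulated data. The 3 arrays per group limit the precision. Every RAB gene past the threshold was named, the 6 largest falls and 4 largest rises with all values. In each list the 3 called genes of smallest p were named, and some regulators whatever their values. TRAPPC2 and SH3BP5 were named after their values were seen. Other RABs not called were named as relatives, or after their values were seen. Trafficking steps were assigned from general knowledge, and some RABs act at several. Members and lists were chosen with earlier results of these data known. Alternatives covered normalization, filters on dim genes, probe set summary, features tested, variance model, array weights, a replicate block and each array left out.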

Additional observations from a re-analysis of the deposited data

How the results depend on the processing

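Of the 22 RAB genes called, 15 were called under every alternative that tested them, 7 lost the call under at least 1, and 0 changed direction. RAB genes called lower numbered 13 to 14 with 1 array left out, and called higher 3 to 7. The median RAB change stayed between -0.02 and 0.05 under all alternatives. With 1 array left out, exchange factors called higher numbered 4 to 8, GTPase-activating proteins called lower 3 to 8 and higher 4 to 6, and genes of the prenylation, REP and GDI list called higher 0 to 2. That last count was 2, against 1, with quantile normalization, with either filter on dim genes, with array weights and with the replicate number as a block. Among genes above the median level, 1 gene of that list was called lower and 3 GTPase-activating proteins were called higher, where fewer genes were tested. GDI2, not called, turned from -0.0053 to 0.0038 with arrays centred on their median and to 0.0026 with array weights, and ran from -0.0231 to 0.0235 with 1 array left out; the cause was not tested. Deviations of same-numbered arrays from their group means correlated weakly over genes (r = 0.0626, 0.0912 and 0.0103). With 3 arrays per group this cannot show whether the number pairs them, and the labels do not say. With the replicate block, 15 RAB genes were called lower and 8 higher, RAB23 and the exchange factor MADD lost their calls (adjusted p = 0.0625 and 0.0604) and RAB27A and RAB3A gained one. With 3 arrays a group and values near the dim level, small changes of RAB3C, RAB25, RAB37, RAB39A, RAB41, RAB42 and RAB44 could be missed.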

Other observations

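RAB13, RAB7A and RAB44 had a second probe set that was not used above. For RAB7A it read 8.33, 7.80 and 8.77 with miR-205 against 7.79, 7.68 and 7.76 with the control, a change of 0.56 ± 0.22 that was not called (adjusted p = 0.152 by limma over all 33297 probe sets), while the brighter probe set was at 0.02. For RAB13 both probe sets were slightly higher, by 0.10 and 0.18 (the second with an adjusted p of 0.102), and for RAB44 neither passed. Of 8 probe sets whose symbols include a RAB beside other genes, 1 was called. It is shared by RAB43 and the readthrough ISY1-RAB43, and its means were 8.92 ± 0.11 with miR-205 and 9.37 ± 0.08 with the control (SD, n = 3 each; change -0.45 ± 0.08, adjusted p = 0.0129 by limma). The probe set named for RAB43 alone was at -0.18 and was not called (adjusted p = 0.118). The probe set shared by RAB34 and NARR was at 0.00, the one naming RAB4B with its readthroughs at 0.07, and both shared by RAB6A, RAB6C and RAB6D at 0.07 and 0.10, none of them called.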
